A study of Mus musculus with 4 samples.

Results

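The 10 genes described here are imprinted growth genes: Igf2, H19, Igf2r, Dlk1, Meg3, Peg3, Plagl1, Grb10, Mest and Ndn. They were chosen as a list of symbols, with earlier results of these data known. All 10 were found among the 32285 genes counted in each of the 4 single-cell libraries. The libraries came from Swiss-Webster mouse embryos at stage E10.5 (34 to 36 somites), from the otic vesicle and the cochleovestibular ganglion dissected with the neural tube and pharyngeal cells next to them. The control libraries, 1 and 2, came from Pax2-Cre;Rosa26-GFPf/+ embryos. Libraries cKO 1 and cKO 2 came from embryos that also carried loxP-flanked Tbx2f/f and Tbx3f/f alleles, so both groups carried the Pax2-Cre driver and the GFP reporter. Cells were sorted as GFP-positive and DAPI-negative, which restricts the libraries to descendants of cells in which the Cre was active. The vesicles of 3 control and 2 cKO embryos were pooled, and how embryos were divided among libraries is not given in the sources used here, so p-values measure the spread between 2 libraries per group, which may be technical.

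Imprinted genes are expressed mainly from a single parental copy, set by methylation laid down in the germ line. Igf2 encodes insulin-like growth factor II, a paternally expressed growth factor of the embryo, and its neighbour H19 is a maternally expressed long noncoding RNA that shares the same control region and enhancers. Igf2r clears IGF2 from the cell surface, and Grb10 is an adaptor that restrains signalling by insulin and IGF receptors. Dlk1, a transmembrane protein related to Notch ligands, and the noncoding RNA Meg3 form a similar neighbouring pair of opposite parental expression. Peg3 and Plagl1 encode zinc finger proteins, Mest a hydrolase-like protein of mesoderm, and Ndn the MAGE-family protein necdin, known from postmitotic neurons. The counts do not separate the parental copies, so every value below is the sum of both.

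In mm10, the build of the counts, the GENCODE annotation places H19 at chr7:142575529-142578143 and Igf2 at chr7:142650766-142666816, both on the minus strand with a gap of 72.6 kb. Dlk1 lies at chr12:109452823-109463336 and Meg3 at chr12:109541001-109571726, both on the plus strand with a gap of 77.7 kb. Peg3 (chr7:6703892-6730431, minus) and Ndn (chr7:62346569-62350262, plus) are on the same chromosome as Igf2 but far from it. Igf2r is at chr17:12682406-12769664 (minus), Plagl1 at chr10:13060504-13131694 (plus), Grb10 at chr11:11930508-12038683 (minus) and Mest at chr6:30723547-30748465 (plus). Several annotated genes overlap a member on the same strand (Gm49394 and Mir483 for Igf2, Mir675 for H19, Mir335 for Mest, Mir770 for Meg3) or on the opposite strand (Igf2os for Igf2, Airn for Igf2r, Copg2 for Mest). Whether counting used the strand is not given in the sources used here, so reads of such pairs may not be separated.

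Promoter windows of 300 bases, from 250 bases before to 50 bases after an annotated start, were available from RefSeq (GRCm38.p6) for 9 of the 10 genes, in 16 entries. The T-box core motif GGTGTG was searched on both strands, and its matches stand in capitals, as CACACC where the match is on the other strand. H19 is the gene without an entry. Peg3 and Plagl1 are shown because they had the largest fall and rise in the otic epithelium described below, and Dlk1 and Meg3 because both genes of this neighbouring pair have an entry.
Peg3 (chr7:6730370-6730669, minus strand): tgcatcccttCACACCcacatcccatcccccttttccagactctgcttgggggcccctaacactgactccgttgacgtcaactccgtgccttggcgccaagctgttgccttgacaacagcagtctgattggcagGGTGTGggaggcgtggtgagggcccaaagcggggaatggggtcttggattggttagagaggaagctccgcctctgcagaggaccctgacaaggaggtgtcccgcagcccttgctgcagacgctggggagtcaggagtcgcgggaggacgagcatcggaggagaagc
Plagl1 (chr10:13090582-13090881, plus strand): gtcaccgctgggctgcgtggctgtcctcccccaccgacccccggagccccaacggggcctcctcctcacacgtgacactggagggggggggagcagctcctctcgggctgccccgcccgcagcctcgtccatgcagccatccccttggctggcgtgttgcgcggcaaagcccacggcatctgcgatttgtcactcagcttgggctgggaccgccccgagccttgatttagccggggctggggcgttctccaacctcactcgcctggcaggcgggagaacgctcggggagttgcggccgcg
Dlk1 (chr12:109452573-109452872, plus strand): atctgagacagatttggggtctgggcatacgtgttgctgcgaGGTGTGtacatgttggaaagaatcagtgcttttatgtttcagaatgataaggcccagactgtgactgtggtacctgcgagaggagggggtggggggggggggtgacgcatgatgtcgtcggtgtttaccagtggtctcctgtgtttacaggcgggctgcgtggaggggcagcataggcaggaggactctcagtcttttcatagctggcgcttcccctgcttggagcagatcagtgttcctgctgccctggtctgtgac
Meg3 (chr12:109540746-109541045, plus strand): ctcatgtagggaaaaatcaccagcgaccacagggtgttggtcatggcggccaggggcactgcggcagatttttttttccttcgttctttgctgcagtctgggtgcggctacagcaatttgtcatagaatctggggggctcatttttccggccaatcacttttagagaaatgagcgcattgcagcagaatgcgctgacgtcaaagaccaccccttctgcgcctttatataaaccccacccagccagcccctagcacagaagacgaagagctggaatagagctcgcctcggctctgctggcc
The Peg3 window held 2 matches, the Dlk1 window 1, and the Plagl1 and Meg3 windows shown held 0. A second Meg3 entry, inside the gene at chr12:109545148-109545447, held 2. The motif was present in 3 of the 16 member entries and in 6257 of all 32851 promoter windows (19.05%). The longer GGTGTGA, which contains the same letters, was in 2 member entries, of Peg3 and Meg3, and in 1307 of all windows (3.98%). These are matches of letters and not measured binding. The windows differed in CG dinucleotides, the sites of the methylation that marks imprints: 26 for Plagl1, 13 for Peg3, 13 for the Meg3 window shown and 9 for Dlk1, against a median of 7 over all windows. Among the member entries not shown, the second Meg3 entry held 1, those of Igf2 held 2, 7, 14 and 24, and the rest held 8 to 45.

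After filtering, 14399 cells were kept, 3869 and 3597 in control 1 and control 2 and 3220 and 3713 in cKO 1 and cKO 2, with median counts of 26970 to 30081 unique molecular identifiers (UMIs, one per captured transcript molecule) per cell. The median share of mitochondrial UMIs was 2.41% in control 1, 2.96% in control 2, 1.31% in cKO 1 and 1.38% in cKO 2. Any pair of libraries shared 2 to 8 cell barcodes. Cells were clustered without the 10 genes and without a wider list of imprinted genes, and clusters were named from marker genes. The counts of a class were then summed per library. The classes used here were otic epithelium-like (2146, 1830, 898 and 1652 cells in control 1, control 2, cKO 1 and cKO 2), placodal sensory neuron-like (633, 721, 308 and 368), epibranchial neuron-like (338, 302, 316 and 410), mesenchyme-like (115, 166, 276 and 83) and endothelium-like cells (37, 19, 43 and 37). The otic cells of the 2 genotypes lay mostly in different clusters: 8, 9, 13, 14, 15 and 18 held mainly control cells and 3, 4 and 5 mainly cKO cells. Cluster 10, with 1 and 0 control and 221 and 369 cKO cells, had otic epithelium as its candidate name. It stayed unnamed and outside the otic class. Neuron clusters were divided unequally too: placodal cluster 7 held 221 and 369 control cells and 25 and 18 cKO cells, and epibranchial cluster 24, of low depth (median 4285 UMIs per cell), held 41 and 21 control and 96 and 57 cKO cells. Epibranchial cluster 11 held 190 and 183 control and 58 and 146 cKO cells, and cluster 12 held 107 and 98 control and 162 and 207 cKO cells. Of the targeted genes, Tbx3 in otic cells read 60.5 and 56.6 CPM (counts scaled to a common library size) in controls and 19.7 and 14.1 in cKO. Tbx2 read 88.7 and 95.0 in controls and 72.8 and 69.5 in cKO (edgeR, adjusted p = 0.0037). Whether 3' tags were still read from recombined alleles was not tested.

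The 10 genes had distinct patterns over cell classes. Levels are CPM of a class in a library, scaled by TMM factors, given over the 4 libraries of both genotypes and not compared between genes. The classes came from clustering these same cells, so differences between classes are described without a test. With the order of the libraries not overlapping between classes as the criterion, 6 of the 10 genes were higher in mesenchyme-like than in otic cells in all libraries (Igf2, H19, Igf2r, Peg3, Grb10 and Mest) and 0 were lower. Over all genes with a mean of at least 5 CPM, 13.3% were higher and 17.9% lower by this criterion. Endothelium-like cells were higher for 6 genes (Igf2, H19, Igf2r, Meg3, Plagl1 and Mest) and lower for 0, against 18.8% and 25.6% of all genes. Placodal neurons were lower for Igf2r, Meg3 and Mest and higher for 0 of the 10, against 19.7% and 14.5% of all genes. Epibranchial neurons were higher for Dlk1, Meg3 and Ndn and lower for Grb10 and Mest, against 29.5% and 28.6% of all genes.

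**Figure D1:**
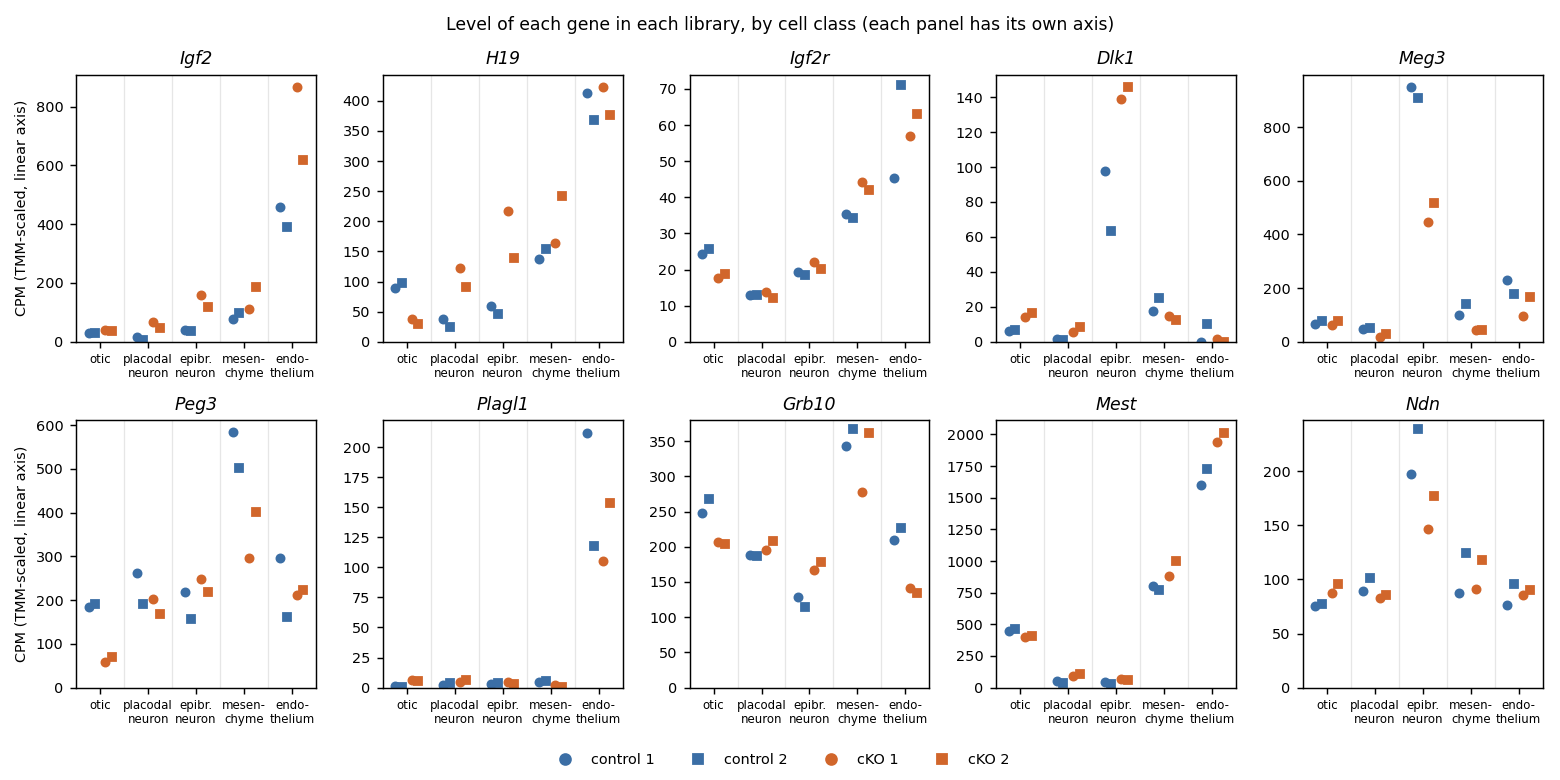
Level of each gene in each library (CPM, TMM-scaled, linear axes that differ between panels) in 5 cell classes, with circles and squares for the 2 libraries of each genotype, control in blue and cKO in orange. Igf2, H19, Mest and Plagl1 are highest in endothelium-like cells, Dlk1, Meg3 and Ndn in epibranchial neuron-like cells, and Igf2 in placodal neurons is at 6.75 to 14.6 in controls and at 47.3 to 66.2 in cKO.

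Igf2 was highest in the endothelium among the classes of the plot, at 392 to 866 CPM, well apart from the mesenchyme at 78.5 to 186. Epibranchial neurons (37.6 to 160.0) overlapped mesenchyme above and otic epithelium (28.3 to 39.3) below, and placodal neurons (6.75 to 66.2) overlapped otic cells. Outside these classes, surface ectoderm-like cells had 386 to 540.4, overlapping the endothelium, and neural tube neuron-like cells 0.582 to 2.64. H19 was at 612 to 699 in surface ectoderm, above the endothelium at 367 to 424, which was above mesenchyme at 137 to 243. Pharyngeal endoderm-like cells, with 352 to 612, overlapped the endothelium. They numbered 73, 4, 139 and 178 in control 1, control 2, cKO 1 and cKO 2, so their control 2 values rest on 4 cells. The levels of H19 in epibranchial neurons (45.7 to 217), placodal neurons (24.5 to 122) and otic epithelium (30.1 to 97.4) overlapped each other.

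Igf2r, the receptor that removes IGF2, was at 45.4 to 71.0 CPM in the endothelium, 34.2 to 44.2 in mesenchyme, 17.6 to 25.8 in otic epithelium and 18.6 to 22.0 in epibranchial neurons, these last overlapping, and 12.1 to 13.8 in placodal neurons. Among the plotted classes Grb10 was highest in mesenchyme (278 to 367), and it reached 203 to 268 in otic epithelium, 187 to 208 in placodal neurons and 114 to 179 in epibranchial neurons. Its endothelial range of 134 to 227 overlapped all of these except mesenchyme. Outside them, pharyngeal endoderm, at 411 to 557 with only 4 cells in control 2, was above mesenchyme, and surface ectoderm (354 to 406) overlapped mesenchyme. When counts were divided by the total UMIs with no TMM factor, Grb10 in mesenchyme and otic cells overlapped, which left 5 genes higher in mesenchyme.

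Dlk1 was highest in epibranchial neurons among the plotted classes, at 63.2 to 146 CPM. It was at 12.6 to 25.1 in mesenchyme and 6.32 to 16.4 in otic cells, which overlapped, and at 0.950 to 8.20 in placodal neurons. The endothelial sums of control 1 and cKO 2 held 0 UMIs of Dlk1. Meg3 was also highest in epibranchial neurons among these classes, at 445 to 949, a range that overlapped that of neural tube neurons, whose mean was higher (797 to 945), and lay at 96.1 to 230.2 in the endothelium, 42.9 to 139.7 in mesenchyme, 63.7 to 77.1 in otic cells and 16.2 to 52.3 in placodal neurons. The placodal range lay below the epibranchial range for both genes. Ndn shared part of the pattern, with 147 to 239 in epibranchial neurons and 438 to 517 in neural tube neurons, while otic cells (75.2 to 95.4), placodal neurons (82.6 to 102), mesenchyme (87.9 to 125) and endothelium (76.7 to 95.4) overlapped.

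Mest, known from mesoderm, was at 1603 to 2013 CPM in the endothelium, 767 to 999.6 in mesenchyme and 401 to 462 in otic epithelium, none of which overlapped, and at 38.5 to 103 in placodal and 31.4 to 64.4 in epibranchial neurons, which did. Plagl1 was at 106 to 212 in the endothelium and between 0.743 and 6.43 in otic cells, mesenchyme and both neuron classes. Neural tube progenitor-like cells (27.3 to 57.5) and surface ectoderm (49.7 to 76.6) were in between. Peg3 was at 296 to 585 in mesenchyme, which touched the endothelial range of 160.4 to 297, and at 168 to 262 in placodal neurons, 156 to 248 in epibranchial neurons and 59.2 to 192 in otic cells.

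Leukocyte-like cells served as the check for free RNA, as blood cells in which most members were near 0. With each cell thinned to 10000 UMIs, shallower cells were left out: 42, 28, 93 and 61 epibranchial neurons of control 1, control 2, cKO 1 and cKO 2, 5, 1, 18 and 4 endothelial cells, and 1, 0, 1 and 4 leukocytes. In otic cells 27 to 57 per library were left out, and in placodal neurons 7 to 17. The share of leukocytes with an H19 UMI was 5.66% to 8.33% over the 4 libraries, and with an Igf2 UMI 0%, 0%, 1.89% and 2.00% (a count of 0 allows up to 6.25% and 7.50% in control 1 and control 2). With a leukocyte count of 0 taken at the limit it allows, the shares of otic cells were above every leukocyte library in all libraries for 8 of the 10 genes, without Dlk1 and Plagl1. Those of placodal neurons were above for 7, without Igf2, Dlk1 and Plagl1, those of epibranchial neurons and mesenchyme for 9, without Plagl1, and those of the endothelium for 9, without Dlk1. The share of all genes that meet this criterion was not computed. These counts therefore serve only as the check for free RNA and show nothing particular to the members. Plagl1 had no UMI in thinned leukocytes, so its low shares outside the endothelium cannot be set apart from leukocytes at this number of cells per library.

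In the otic epithelium, Plagl1, Dlk1, Igf2 and Ndn rose and Peg3, H19, Igf2r and Grb10 fell in cKO, while Meg3 and Mest did not pass the test. Thus 8 of 10 genes were called (edgeR quasi-likelihood test, adjusted p under 0.05), beside 41.2% of the 15144 genes tested in this class, of which 21.4% were higher and 19.8% lower. Median UMIs per otic cell were 31541 and 29961 in controls and 38759 and 35417.5 in cKO. The groups did not overlap for 9 of the 10 genes, nor for 73% of all genes tested.

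Peg3 had the largest fall: 184 and 192 CPM in controls against 59.2 and 70.3 in cKO (log2 fold change -1.54, SE 0.09, adjusted p = 1.4e-05). Both control libraries were far above both cKO libraries. After thinning, 59.6% and 61.9% of control otic cells and 29.1% and 31.5% of cKO cells had a Peg3 UMI (unthinned 78.8%, 77.4%, 54.9% and 57.1%). H19 read 89.7 and 97.5 in controls and 38.6 and 30.1 in cKO, a change of -1.45 (SE 0.11, adjusted p = 4.7e-05), again with no overlap. Its neighbour Igf2 moved the other way, from 30.9 and 28.3 to 39.3 and 37.0 (0.36, SE 0.08, adjusted p = 0.0063).

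Plagl1 had the largest rise, from a low level: 0.880 and 0.751 CPM in controls and 6.01 and 5.50 in cKO (2.78, SE 0.17, adjusted p = 1.4e-05). It remained a transcript of few otic cells, with a UMI in 1.04% and 1.07% of thinned control cells and 5.17% and 5.07% of thinned cKO cells (unthinned 2.70%, 2.46%, 13.1% and 11.3%). These shares have exact 95% intervals of 0.66% to 1.58% and 0.65% to 1.67% in controls and of 3.79% to 6.85% and 4.05% to 6.26% in cKO, which cover counting error only, and all 4 shares lie under the leukocyte limit. Dlk1 read 6.32 and 6.56 in controls and 14.0 and 16.4 in cKO (1.25, SE 0.11, adjusted p = 8.8e-05), while Meg3 next to it read 66.9 and 77.1 against 63.7 and 76.5 (-0.03, SE 0.10, adjusted p = 0.81) and overlapped between the groups.

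The IGF2 receptor gene Igf2r read 24.4 and 25.8 in controls and 17.6 and 18.7 in cKO (-0.46, SE 0.08, adjusted p = 0.0023), and the adaptor gene Grb10 read 248 and 268 against 207 and 203 (-0.33, SE 0.07, adjusted p = 0.0073). Both were lower in each cKO library. Ndn rose from 75.2 and 77.0 to 87.7 and 95.4 (0.27, SE 0.07, adjusted p = 0.016). That call was lost without library cKO 2 (0.20, adjusted p = 0.15). Mest, at 447 and 462 against 401 and 406, did not pass (-0.17, adjusted p = 0.071), although its groups did not overlap, and passed without control 1 (-0.19, adjusted p = 0.048).

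Other cell types' markers in the otic class are given beside these results, and their part in them was not tested. The summed level of the 12 mesenchyme markers, all detected, was 60.7 and 49.1 CPM in controls and 117 and 80.2 in cKO, nearly all of it Prrx2 (55.9, 43.0, 109 and 75.7), while Prrx1 was at 0.18 to 0.81 against 316 to 730.1 in the mesenchyme class. The neural crest or glia list was at 229 and 247 in controls and 112 and 128 in cKO. The otic list itself was at 1715 and 1797 in controls and 1179 and 1209 in cKO.

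**Figure D2:**
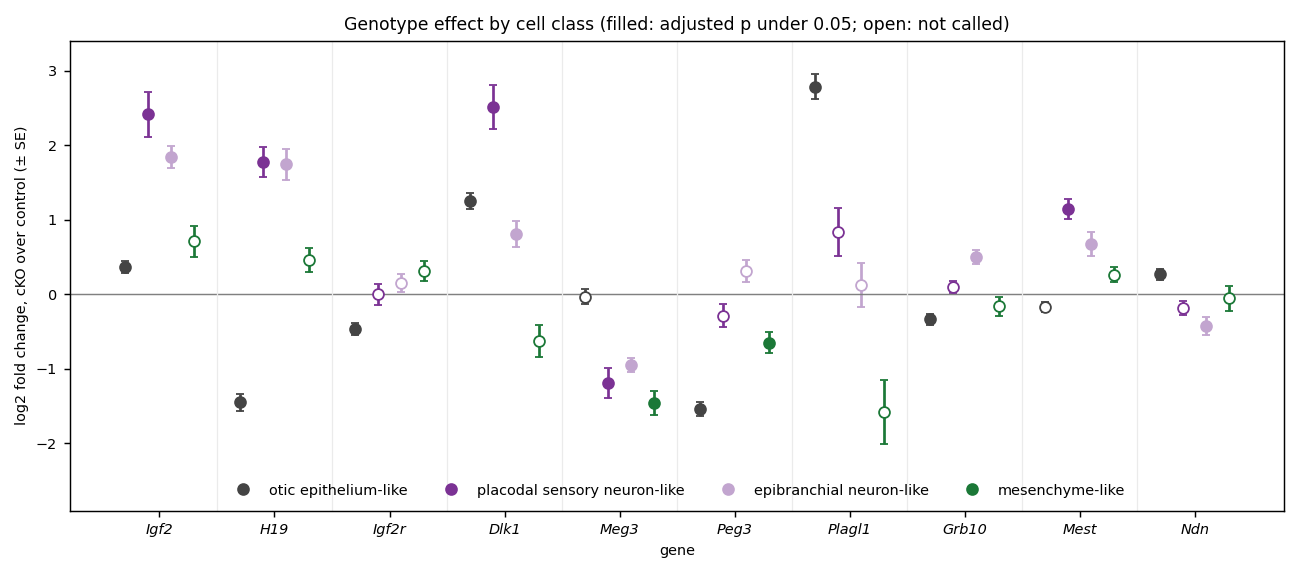
Genotype effect on each gene (log2 fold change, cKO over control, with its SE as bars) in 4 cell classes, filled where the adjusted p was under 0.05. H19 is at -1.45 in otic cells and at 1.77 and 1.75 in the 2 neuron classes, and Igf2 lies above 0 in the 4 classes.

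In placodal sensory neuron-like cells, Igf2, H19, Dlk1 and Mest rose and Meg3 fell in cKO, and the other 5 genes did not pass. The 5 called genes stand beside 36.8% of the 12899 genes tested in this class, 18.1% higher and 18.8% lower. The groups did not overlap for 8 of the 10 genes, nor for 71.2% of all genes tested. Median UMIs per cell were 25037 and 25481 in controls and 35278 and 31599.5 in cKO.

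Igf2 read 14.6 and 6.75 CPM in controls and 66.2 and 47.3 in cKO (2.41, SE 0.30, adjusted p = 0.00096). Both cKO libraries were above both control libraries, and without control 1 the change was 3.06. Thinned to 10000 UMIs, 12.2% and 5.97% of control neurons and 40.1% and 32.4% of cKO neurons had an Igf2 UMI (unthinned 25.4%, 14.7%, 74.0% and 62.2%). The exact 95% intervals were 9.70% to 15.02% and 4.33% to 7.98% in controls and 34.5% to 45.9% and 27.6% to 37.5% in cKO. The share of control 2 lies under the leukocyte limit of 7.50%. H19 rose here from 38.0 and 24.5 to 122 and 91.3 (1.77, SE 0.21, adjusted p = 0.00071), with thinned shares of 26.0% and 18.8% against 50.5% and 46.3% (unthinned 46.0%, 35.8%, 77.9% and 69.8%). Leukocytes had median depths of 37492 to 51386.5 UMIs and the H19 and Igf2 shares given above.

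Dlk1 was low in these neurons, at 1.41 and 0.950 in controls and 5.72 and 8.20 in cKO (2.51, SE 0.30, adjusted p = 0.00078), and its shares were not above those of every leukocyte library. Meg3 fell from 49.2 and 52.3 to 16.2 and 28.0 (-1.19, SE 0.20, adjusted p = 0.0033), with both cKO libraries below the controls. Within single clusters it was not called: it read 0.03 in cluster 20, -0.53 in cluster 0 and -0.46 in cluster 7 (adjusted p = 0.94, 0.058 and 0.64), and cluster 7, with 103 and 89.1 CPM of Meg3 in controls, held few cKO cells. Mest rose from 51.1 and 38.5 to 95.0 and 103 (1.15, SE 0.13, adjusted p = 0.00074), and within these clusters it read 0.33, 0.61 and 0.36, called in cluster 0 only (adjusted p = 0.077, 0.0038 and 0.67). Igf2r was at 13.1, 12.8, 13.8 and 12.1 in control 1, control 2, cKO 1 and cKO 2 (adjusted p = 0.99). Peg3 was at 262 and 190.3 against 203 and 168 (-0.29, adjusted p = 0.17), and its groups overlapped. It passed without control 2 (-0.50, adjusted p = 0.00065). Plagl1, at 2.08 and 4.15 against 4.88 and 6.43, did not pass (0.84, adjusted p = 0.075), but passed without control 2 (1.41, adjusted p = 0.00096) and without cKO 1 (1.03, adjusted p = 0.040). Grb10 (0.10, adjusted p = 0.35) and Ndn (-0.18, adjusted p = 0.17) did not pass either, although Ndn did without control 1 (-0.27, adjusted p = 0.033).

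Prrx2 and Krt18, from the marker lists of mesenchyme and surface ectoderm, which hold more Igf2 and H19, were also higher in the cKO neurons. Otic cells held both as well, Prrx2 at 43.0 to 109 CPM and Krt18 at 257 to 306. The part of such markers in these results was not tested. The mesenchyme list (11 of 12 markers with counts, Tcf21 at 0) summed to 47.2 and 26.8 CPM in controls and 96.0 and 65.2 in cKO, of which Prrx2 made 45.0, 22.8, 92.4 and 62.0. Prrx1, at 0.06 to 0.21, was near 0 in every library. The surface ectoderm list (7 of 9 with counts, Krt14 and Krt15 at 0) summed to 20.5 and 12.99 against 50.6 and 50.9, mostly Krt18, with Trp63 at 0 to 0.36. The otic list was at 204 and 128 against 352 and 358, the placodal neuron list itself at 3701 and 3836 against 2519 and 2468, and the neural tube neuron list at 142 and 143 against 53.0 and 46.5. The endothelium list, with Cdh5 and Tek at 0, was at 21.5 and 18.6 against 28.6 and 27.7.

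The genotype effect differed between otic cells and placodal neurons for all 10 genes by the test of the difference itself, the interaction of genotype and class with library as a block, beside 14.9% of the 14921 genes tested. The neuron effect was higher than the otic effect for 7 genes (7.05% of all genes) and lower for 3 (7.89%). H19 had the largest difference, 3.23 on the log2 scale (SE 0.18, adjusted p = 8.5e-07), since it fell in otic cells and rose in neurons. The differences for Igf2 (2.07, SE 0.23, adjusted p = 0.00013), Mest (1.33, SE 0.11, adjusted p = 2.2e-05), Dlk1 (1.32, SE 0.25, adjusted p = 0.0046) and Peg3 (1.26, SE 0.17, adjusted p = 0.00046) were positive too. So were those for Igf2r (0.46, adjusted p = 0.044) and Grb10 (0.44, adjusted p = 0.0011). Plagl1 (-1.88, SE 0.35, adjusted p = 0.0040), Meg3 (-1.16, SE 0.13, adjusted p = 0.00016) and Ndn (-0.44, SE 0.08, adjusted p = 0.0041) had negative differences. The Igf2r difference did not pass without control 2, cKO 1 or cKO 2 (adjusted p = 0.10, 0.29 and 0.054), and without cKO 2 those of Dlk1 (adjusted p = 0.052) and Ndn (adjusted p = 0.081) did not pass. Without control 2 the Plagl1 difference was -1.22.

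In epibranchial neuron-like cells, Igf2, H19, Dlk1, Grb10 and Mest rose and Meg3 and Ndn fell. These 7 calls stand beside 25.5% of the 12811 genes tested, 12.3% higher and 13.2% lower. The groups did not overlap for 9 of the 10 genes, nor for 68.7% of all genes. Igf2 read 39.2 and 37.6 in controls and 160.0 and 117 in cKO (1.84, SE 0.15, adjusted p = 0.00092), and H19 59.7 and 45.7 against 217 and 139 (1.75, SE 0.21, adjusted p = 0.0033). Neither overlapped between groups. Within clusters 12 and 11 both rose by less, Igf2 by 1.08 and 0.98 and H19 by 1.12 and 0.49. H19 was not called in cluster 11 (edgeR, adjusted p = 0.070). Thinned shares with an Igf2 UMI were 32.8% and 31.4% in controls and 67.3% and 59.9% in cKO (unthinned 55.6%, 50.7%, 67.4% and 74.1%). Meg3, abundant in these neurons, fell from 949 and 908 to 445 and 516 (-0.95, SE 0.10, adjusted p = 0.0018), and by less within clusters 12 and 11 (-0.57 and -0.54, adjusted p = 0.0056 and 0.0025).

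The remaining epibranchial calls were smaller, depended on single libraries and were mostly not found within single clusters. In clusters 12 and 11, Dlk1 read 0.53 and 0.42 (adjusted p = 0.091 and 0.13), Grb10 0.22 and 0.21 (adjusted p = 0.29 and 0.21) and Ndn -0.06 and -0.06 (adjusted p = 0.85 and 0.73), while Mest was called in cluster 12 (1.16, adjusted p = 0.0070) and not in cluster 11 (0.27, adjusted p = 0.26). Dlk1 was at 97.9 and 63.2 in controls and 139 and 146 in cKO (0.81, SE 0.17, adjusted p = 0.015), and did not pass without control 2 (0.54, adjusted p = 0.071). Grb10 was at 129 and 114 against 166 and 179 (0.50, adjusted p = 0.0092), not called without control 1 (0.59, adjusted p = 0.051) or control 2 (0.42, adjusted p = 0.11). Mest was at 45.5 and 31.4 against 64.4 and 59.1 (0.67, adjusted p = 0.021), not called without control 2 (0.44, adjusted p = 0.10). Ndn was at 198 and 239 against 147 and 178 (-0.43, adjusted p = 0.040), and lost its call without control 1 (-0.56, adjusted p = 0.075), control 2 (-0.28, adjusted p = 0.27) or cKO 1 (-0.29, adjusted p = 0.051). Igf2r (0.15, adjusted p = 0.39), Peg3 (0.31, adjusted p = 0.16) and Plagl1 (0.13, adjusted p = 0.78) did not pass. Peg3 passed without cKO 2 (0.40, adjusted p = 0.024). In this class too the mesenchyme list was higher in cKO (61.9 and 49.0 against 175 and 133, all 12 markers with counts), mostly Prrx2, with Prrx1 at 0.18 to 1.67, and the surface ectoderm list was at 17.2 and 11.8 against 43.7 and 40.5. Their part in the result was not tested.

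In mesenchyme-like cells 2 of the 10 genes were called, both lower in cKO, and 0 higher, beside 5.74% of the 10367 genes tested, 2.7% lower and 3.04% higher. The groups did not overlap for 8 of the 10, nor for 53.6% of all genes. At an unadjusted p under 0.05, 2417 genes passed in this class. DESeq2 likewise called 2 members lower and 0 higher, beside 343 of the 3558 genes to which it gave an adjusted p. Meg3 read 100.3 and 139.9 in controls and 42.9 and 45.3 in cKO (-1.45, SE 0.16, adjusted p = 0.00093), with no overlap. Peg3, whose mean level was highest in mesenchyme among the 5 classes, read 585 and 502 against 296 and 401 (-0.65, SE 0.14, adjusted p = 0.023). Its call was lost without cKO 1 (-0.42, adjusted p = 0.070) and with doublets kept (-0.62, adjusted p = 0.053).

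Igf2 in mesenchyme was at 78.5 and 97.8 in controls and 110.0 and 186 in cKO and did not pass (0.71, SE 0.20, adjusted p = 0.066). It passed without control 2 (0.87, adjusted p = 0.029) and without cKO 1 (1.08, adjusted p = 4.1e-09), at a limit of 5% mitochondrial UMIs (0.82, adjusted p = 0.039) and with no filter on low counts (0.70, adjusted p = 2.7e-06). H19 was at 137 and 154 against 164 and 243 (0.46, adjusted p = 0.12) and passed without cKO 1 (0.75, adjusted p = 0.00015). Dlk1 was at 17.4 and 25.2 against 14.5 and 12.6 (-0.63, adjusted p = 0.11) and passed without control 1 (-0.84, adjusted p = 0.024). Plagl1 was at 4.56 and 5.42 against 1.87 and 0.743, the last from 2 UMIs (adjusted p = 0.053). Igf2r (0.31), Mest (0.26), Grb10 (-0.16) and Ndn (-0.05) did not pass. The mesenchyme markers themselves summed to 2074 and 2053 in controls and 1446 and 1758 in cKO, with Prrx1 at 658 and 730.1 against 316 and 518.

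The endothelium was too small for the planned test, with 19 cells in control 2, and was fitted with that library kept as an addition made after seeing the data. Igf2, at 459.9 and 392 in controls and 865 and 618 in cKO, was the only member called (0.79, SE 0.16, adjusted p = 0.015), beside 1.48% of the 7101 genes tested (0.69% higher), and it was not called without cKO 1 (0.54, adjusted p = 0.34). Grb10 was at 209.9 and 228 against 141 and 134 and did not pass (-0.66, adjusted p = 0.064), but passed without control 1 (-0.72, adjusted p = 0.049). H19 (0.03, adjusted p = 0.97), Plagl1 (-0.39, adjusted p = 0.49) and Mest (0.24, adjusted p = 0.33) did not pass. Meg3 (-0.64, adjusted p = 0.16) passed without control 2 (-0.78, adjusted p = 0.014) and without cKO 2 (-1.09, adjusted p = 0.0056). Median UMIs per endothelial cell were 25257 and 24003 in controls and 14157 and 24903 in cKO. The otic marker list summed to 77.6 and 239 CPM in controls and 26.2 and 42.2 in cKO, and the mesenchyme list (7 of 12 with counts) to 102 and 60.8 against 78.6 and 72.2. The erythroid list (5 of 8 with counts) summed to 7.65 and 0 in controls and 81.3 and 31.1 in cKO. Their part in the result was not tested.

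Over all kept cells of a library, where fewer cells of a type and less RNA per cell cannot be told apart, Igf2, Dlk1 and Plagl1 rose and Meg3 and Peg3 fell, beside 27% of the 17321 genes tested. Igf2 was at 50.9 and 32.7 in controls and 120.0 and 97.5 in cKO (1.38, adjusted p = 0.014). Surface ectoderm-like cells, rich in Igf2 and H19, numbered 213 and 49 in controls and 339 and 290 in cKO, and their part in the result was not tested. H19, which moved in opposite directions in otic cells and neurons, did not pass over all cells (105 and 83.1 against 157 and 111, 0.51, adjusted p = 0.096), but passed without cKO 2 (0.71, adjusted p = 0.036). The Dlk1 (0.95), Meg3 (-0.54) and Plagl1 (0.97) calls were lost without control 2 (adjusted p = 0.052, 0.053 and 0.10), that of Plagl1 also without cKO 1 (adjusted p = 0.10) or cKO 2 (adjusted p = 0.056).

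The ratios of neighbouring genes do not depend on the scaling of a library and are given as a description with no test. In otic cells there were 0.345 and 0.291 UMIs of Igf2 per UMI of H19 in controls and 1.02 and 1.23 in cKO. Placodal neurons, in which both genes rose, had 0.385 and 0.275 against 0.541 and 0.518. Epibranchial neurons overlapped between groups (0.656 and 0.822 against 0.737 and 0.841), mesenchyme had 0.572 and 0.633 against 0.673 and 0.767, and the endothelium 1.11 and 1.07 against 2.04 and 1.64. The ratio was thus higher in both cKO libraries in 4 of the 5 classes. For Dlk1 over Meg3 the otic values were 0.0945 and 0.0851 in controls and 0.220 and 0.215 in cKO, those of placodal neurons 0.0286 and 0.0182 against 0.353 and 0.293, those of epibranchial neurons 0.103 and 0.0696 against 0.312 and 0.282, and those of mesenchyme 0.174 and 0.180 against 0.338 and 0.279. This ratio was higher in both cKO libraries in all 4 of those classes. Neither count stands beside a share of all gene pairs, which was not computed. For single genes, the groups did not overlap for 53.6% to 73% of those tested in these 4 classes. Within otic clusters the log2 fold changes of Dlk1 and Meg3 were 1.26 and 1.51 in cluster 2 and -1.37 and -0.38 in cluster 21. In each of these clusters the value for Dlk1 was thus below that for Meg3. The otic cells of the 2 genotypes lay mostly in different clusters, and the part of this in the class ratio was not tested. In the endothelium Dlk1 had too few UMIs to order the ratios.

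**Figure D3:**
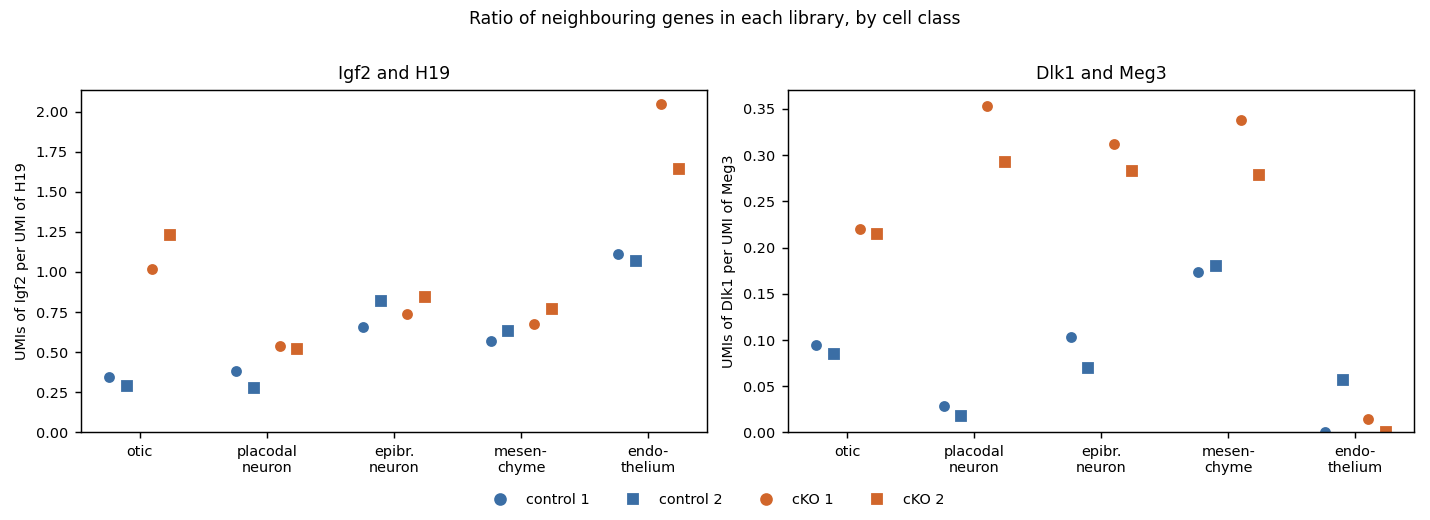
UMIs of Igf2 per UMI of H19 (left) and of Dlk1 per UMI of Meg3 (right) in each library, by cell class, on linear axes, control in blue and cKO in orange. In otic cells the left ratio is at 0.291 to 0.345 in controls and at 1.02 to 1.23 in cKO, and the right ratio is higher in both cKO libraries in each class except the endothelium.

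Because the otic cells of the 2 genotypes lay mostly in different clusters, the fits were repeated within single clusters that held both (at least 15 cells in each library), an addition made after seeing the data. Cluster 24, of low depth, was not fitted. Igf2 was called higher in cKO in all 7 other such clusters of otic cells and neurons, with log2 fold changes from 0.93 to 2.98, where 1.26% to 27.3% of all genes were called in either direction. In otic cluster 2 (433, 305, 23 and 66 cells in control 1, control 2, cKO 1 and cKO 2; 18.7% of genes called) Igf2 was at 17.6 and 16.4 in controls and 45.1 and 46.9 in cKO. H19 fell there too, from 45.4 and 52.1 to 27.7 and 31.9 (-0.66, adjusted p = 0.0090), by less than in the class as a whole. In otic cluster 21 (84, 99, 30 and 79 cells; 9.16% called) H19 did not pass (-0.15, adjusted p = 0.56), Igf2 read 68.6 and 48.0 against 141 and 91.1, and Dlk1 fell from 14.2 and 19.4 to 8.07 and 5.39 (-1.37, adjusted p = 0.027).

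Peg3 and Meg3 went against their class values in cluster 2. Peg3 rose there from 83.9 and 91.4 to 144 and 125 (0.60, adjusted p = 0.0021), and Meg3 from 83.5 and 80.0 to 284 and 198 (1.51, adjusted p = 3.9e-06), whereas in cluster 21 neither passed. Of the 4 genes that fell in the class, H19 and Grb10 were thus called lower in cluster 2 (Grb10 -0.78, adjusted p = 0.00032), as was Mest (-0.36, adjusted p = 0.013), and Peg3 and Igf2r were not (Igf2r 0.01, adjusted p = 0.97). In cluster 21 the 4 genes were not called (Grb10 0.0040, Igf2r 0.04, Peg3 -0.13, adjusted p = 0.99, 0.92 and 0.52). A fit on both clusters together gave 0.75 for Peg3, 1.08 for Meg3, 0.05 for H19 and 0.32 for Igf2r, but the clusters were divided unequally between the genotypes, and the values for Peg3, H19 and Igf2r lie outside those of the single clusters. In placodal cluster 20, led by the proneural gene Neurog1 (68, 53, 81 and 106 cells; 16.4% called), Peg3 fell from 191 and 123 to 43.1 and 62.8 (-1.56, adjusted p = 2.1e-06), while the class as a whole did not pass.

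The neuronal rise of H19 was found within clusters as well. In placodal cluster 0 (344, 299, 202 and 244 cells; 27.3% called) H19 was at 48.3 and 32.3 in controls and 137 and 107 in cKO (1.59) and Igf2 at 17.1 and 7.38 against 73.2 and 49.8 (2.29). Cluster 7 (221, 369, 25 and 18 cells; 1.26% called) gave 2.48 for H19 and 2.98 for Igf2, and cluster 20 gave 0.97 and 1.61. In epibranchial cluster 12 (107, 98, 162 and 207 cells; 7.84% called) H19 rose from 159.9 and 83.8 to 291 and 243 (1.12, adjusted p = 0.012) and Igf2 from 105 and 92.1 to 218 and 199.7 (1.08). In cluster 11 (190, 183, 58 and 146 cells; 11.1% called) Igf2 was at 18.7 and 17.6 against 37.4 and 35.1 (0.98, adjusted p = 0.0018), and H19 did not pass (0.49, adjusted p = 0.070). Peg3 fell in cluster 11 (-0.46, adjusted p = 0.027), against its class value of 0.31, and did not pass in cluster 12 (0.67, adjusted p = 0.11).

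**Figure D4:**
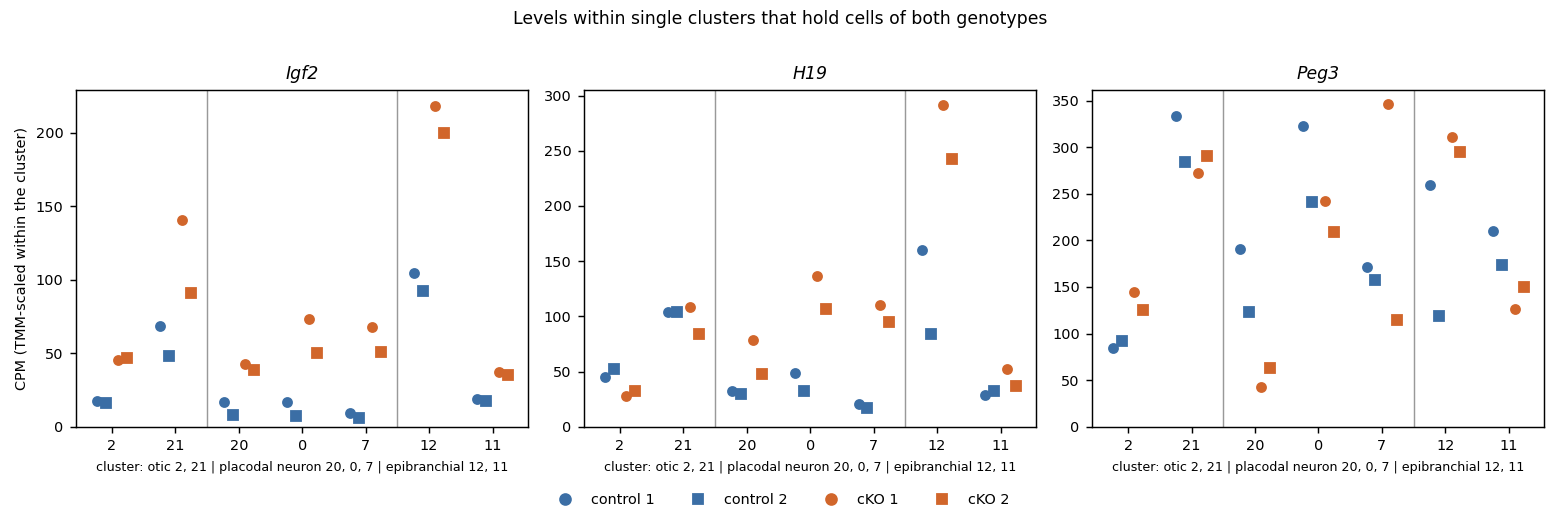
Levels of Igf2, H19 and Peg3 (CPM, TMM-scaled within the cluster, linear axes) in each library within 7 clusters that hold both genotypes, grouped as otic, placodal neuron and epibranchial neuron clusters. Igf2 is higher in both cKO libraries than in both controls in every cluster shown, and Peg3 in cluster 2 is higher in cKO while in cluster 20 it is lower.

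A wider list of 42 imprinted genes was read in the same fits. In otic cells 38 were tested, of which 7 rose and 12 fell with a median log2 fold change of -0.07, where 21.4% of all genes rose and 19.8% fell. In placodal neurons 34 were tested, of which 3 rose and 9 fell with a median of -0.09, where 18.1% of all genes rose and 18.8% fell. The medians over all genes were -0.02 in both classes. The largest called changes in otic cells were falls of Dcn, the gene of the matrix proteoglycan decorin (6.20 and 14.5 CPM against 2.59 and 3.20, -1.80, adjusted p = 0.0043), and of Zim1, a zinc finger gene near Peg3 (1.09 and 1.11 against 0.238 and 0.349, -1.80, adjusted p = 0.0020). In placodal neurons Dcn had 31 and 52 UMIs in controls and 4 and 2 in cKO, a ratio per UMI of 0.112 with an exact 95% interval of 0.0400 to 0.255. The intervals of such ratios pool the 2 libraries of a group and cover counting error only, not the spread between libraries. In epibranchial neurons 4 rose and 9 fell of 37 tested (12.3% and 13.2% of all genes), and in mesenchyme 1 rose and 2 fell of 29 (3.04% and 2.7%).

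Of 25 genes of IGF signalling, 22 were tested in otic cells, where 3 rose and 11 fell with a median of -0.26, beside the 21.4% and 19.8% of all genes. Pappa, the protease that frees IGF from its binding proteins, had 97 and 63 UMIs in controls and 2 and 2 in cKO, a ratio of 0.0334 with an interval of 0.00899 to 0.0872. Igfbp5, a binding protein gene, fell from 133 and 162 CPM to 37.9 and 42.0 (-1.89). The receptor gene Igf1r fell as well, from 80.3 and 82.7 to 60.8 and 58.1 (-0.45, adjusted p = 0.0012). In placodal neurons 20 were tested, 3 rose and 6 fell with a median of -0.18, beside 18.1% and 18.8%. There Igfbp7 had 39 and 66 UMIs in controls and 3 and 8 in cKO (ratio 0.163, interval 0.0787 to 0.303), and Pappa2 fell from 6.64 and 7.70 CPM to 1.59 and 1.94 (adjusted p = 0.00078). Epibranchial neurons had 3 of 22 up and 6 down, beside 12.3% and 13.2%, and mesenchyme 1 of 19 up and 1 down, beside 3.04% and 2.7%.

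Among 8 factors that maintain or read imprints, Smchd1 rose (0.29) and Dnmt3a fell (-0.59) in otic cells and the other 6, Zfp57 and Trim28 included, did not pass, where 41.2% of all genes were called in either direction. In placodal neurons Uhrf1 (0.51), Dnmt1 (0.36) and Smchd1 (0.34) rose and Dnmt3a fell (-0.62), where 36.8% were called. In epibranchial neurons 1 rose and 1 fell (25.5% of all genes called), and in mesenchyme 0 of the 8 were called (5.74%).

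Over the 36 sums of 9 classes and 4 libraries, Igf2 and H19 followed each other most closely among the members (Pearson r = 0.94 of log2 CPM), Meg3 and Ndn had r = 0.91 and Dlk1 and Meg3 r = 0.81. The 9 classes were those with at least 20 cells in every library, which left out the endothelium and the pharyngeal endoderm. The 36 sums share libraries and classes, so r is a description with no p. Of 8128 other genes, those most like Igf2 were Tpm1 (0.90), Serpinh1 (0.89) and Myl9 (0.88), and those most like H19 were Serpinh1 (0.90), Myl9 (0.88) and the imprinted Slc38a4 (0.88). Meg3 was nearest to Rian (0.96), an imprinted noncoding RNA of the same cluster of genes, then to Tspyl4 (0.95) and Tcaf1 (0.94). Rian was also second for Dlk1 (0.87), after Zwint (0.88) and before Ndufa4l2 (0.84). Peg3 was nearest to Mfap2 (0.91), Ccdc127 (0.89) and its imprinted neighbour Usp29 (0.89), and Ndn to Fdft1 (0.95), the imprinted Snrpn (0.94) and Tspyl4 (0.94). For Igf2r these were Cald1 (0.93), Kctd1 (0.91) and Amotl1 (0.90), for Grb10 Tjp1 (0.97), Fermt2 (0.97) and Rnf144a (0.96), for Mest Tmem216 (0.94), Thap12 (0.93) and Rab34 (0.93), and for Plagl1 Col4a5 (0.86), Sema3c (0.84) and Rcan1 (0.83).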

How the data were processed

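Single-cell RNA-seq libraries (10x 3' v3.1) of 2 control and 2 cKO samples were analysed as matrices of UMI counts per gene and cell. The counts were made by the authors and deposited unnormalized: with Cell Ranger 6.0.1 per the file headers, and with Cell Ranger 3.1.0 on mm10, FastQC 0.11.4 and Seurat 4.1.0 per the submitters' processing notes. Control 1 held 128205192 UMIs, control 2 111724972, cKO 1 106769747 and cKO 2 124986694. Barcodes with at least 1000 genes and at most 10% mitochondrial UMIs were kept, and the top 0.8% of Scrublet scores per 1000 barcodes were removed as doublets (154, 160, 124 and 148 cells in control 1, control 2, cKO 1 and cKO 2), since the automatic threshold marked only 3, 2, 5 and 0. Cells were normalized, reduced to 30 components over 2000 variable genes and clustered with scanpy 1.11.5 (Leiden, resolution 1, 29 clusters). The 10 genes and the wider imprinted list were left out of clustering. Clusters were named from fixed markers by a scoring rule settled after the clusters were seen, so classes are called "like" a type. Cluster 10 (591 cells, nearly all cKO) met the bar for otic epithelium with 5 otic markers. Its 10 leading genes held a mesenchyme marker (Prrx2) and no otic marker, so it stayed unnamed. Names rebuilt in this way may differ from the authors' own.

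Counts were summed per library and class and tested with edgeR 4.0.16 (R 4.3.3; filterByExpr, TMM, quasi-likelihood F test, prior count 1), with Benjamini-Hochberg adjustment over all genes tested and a threshold of 0.05. TMM factors for levels across classes and for each genotype fit were computed separately, so a level can differ in its last digit. DESeq2 1.42.0, other scaling, no filter, left-out libraries, a replicate block, other clusterings and filters were alternatives. Shares of cells use exact Clopper-Pearson intervals, and 3 counts as the limit allowed by a count of 0, both for counting error only. The code was tested on simulated data. All 10 genes are named in every comparison, together with the 4 (otic) and 3 (placodal) called genes of the imprinted and IGF lists with the largest changes and the 3 genes most correlated with each member (mean of at least 10 CPM). Igf1r and the imprint maintenance calls were named after their values were seen. The members and lists were chosen with earlier results of these data known.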

Additional observations from a re-analysis of the deposited data

Results flagged for a closer look

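The genotype effect differed between placodal sensory neuron-like and otic epithelium-like cells for each of the 10 genes (interaction test in edgeR, adjusted p under 0.05), with 14.9% of all genes called. As the effect in neurons minus that in otic cells, on the log2 scale, the difference was 3.23 for H19, 2.07 for Igf2, 1.33 for Mest, 1.32 for Dlk1, 1.26 for Peg3, 0.46 for Igf2r and 0.44 for Grb10. It was -0.44 for Ndn, -1.16 for Meg3 and -1.88 for Plagl1. For H19 the signs of the 2 effects were opposite, each effect was called, and both cKO libraries lay below both controls in otic cells and above them in neurons. Within otic clusters 2 and 21 H19 read -0.66 and -0.15 (edgeR, adjusted p = 0.0090 and 0.56), and within placodal clusters 20, 0 and 7 0.97, 1.59 and 2.48. Peg3 read 0.60 and -0.13 in these otic clusters and -1.56, -0.32 and 0.56 in these placodal clusters. The difference between otic cells and neurons was fitted on whole classes and not within clusters.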

How the results depend on the processing

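Of 668 log2 fold changes of members recomputed under alternatives fixed beforehand, 604 kept their direction and call, 20 changed sign, 23 gained a call and 21 lost it. Of 179 under alternatives added after seeing the data, 123 kept both and 30 changed sign. The 8 otic calls held under all 13 alternatives fixed beforehand, except that of Ndn, and the 5 placodal calls held under all 13. Depth limits the endothelium, with 19 to 43 cells per library, and Dlk1 and Plagl1 where they have few UMIs. The endothelium had no fit as planned. On the added fit, RLE factors, DESeq2, the replicate block and left-out libraries were run, and the other alternatives listed for it were not run. The cause of the changes below was not tested.

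The numbers of genes called depended on the method and on single libraries. DESeq2 called 3133 genes in placodal neurons (4749 with edgeR), 1736 in epibranchial neurons (3265), 343 in mesenchyme (595) and 57 in the added endothelium fit (105). In mesenchyme 74.6% of the DESeq2 calls were higher in cKO, against 52.9% of the edgeR calls. Mesenchyme had 1281 calls with no filter on low counts and 326 with doublets kept. With no filter, members called were 2 higher and 4 lower in mesenchyme (0 and 2 in the main fit), where 1281 of 17346 genes were called. In placodal neurons 2 members were then lower (1 in the main fit), where 5454 of 19660 genes were called. Doublets kept left 1 member lower in mesenchyme (326 of 10650 genes called), and a limit of 5% mitochondrial UMIs gave 1 higher (605 of 10326). Leaving out 1 library at a time gave 173 to 4137 genes in epibranchial neurons, the low values without control 2 (173) and control 1 (526), and 477 to 3066 over all cells (4679), lowest without control 2. It gave 333 to 1040 in mesenchyme, with 333 without control 2 and 1040 without control 1, 34 to 303 in the endothelium and 1072 to 3349 for the difference between otic cells and neurons (2230). The members called then ranged from 1 to 2 lower in placodal neurons, 2 to 6 higher and 1 to 2 lower in epibranchial neurons, 0 to 2 higher and 1 to 3 lower in mesenchyme, 1 to 3 higher and 1 to 2 lower over all cells, and 0 to 1 higher and 0 to 1 lower in the endothelium. Placodal neurons at resolution 0.5 or 2 had 4 members lower than otic cells, Grb10 in addition, and with doublets kept 3, Grb10 in place of Meg3. Per total UMI, 4 members were higher in epibranchial neurons than in otic cells, Igf2 in addition, and 5 in mesenchyme.

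Same-numbered libraries did not deviate together: the correlations of deviations from the group means were 0.034, -0.019, 0.034 and -0.019 in otic, placodal, epibranchial and mesenchyme cells and -0.10 over all cells. With the replicate block, 4 members were called higher and 4 lower in otic cells, where 6426 of 15144 genes were called. Placodal neurons had 5 and 1 (4315 of 12899 genes called) and epibranchial neurons 6 and 2 (3346 of 12811). Mesenchyme had 1 and 1 (293 of 10367), all cells 4 and 2 (3900 of 17321) and the endothelium 1 and 2 (297 of 7101). In placodal neurons Plagl1 passed with the block (0.87, adjusted p = 0.028), in epibranchial neurons Peg3 (0.33, adjusted p = 0.043), in mesenchyme Igf2 (0.71, adjusted p = 0.040), over all cells H19 (0.50, adjusted p = 0.014), and in the endothelium Meg3 (-0.68, adjusted p = 0.016) and Grb10 (-0.67, adjusted p = 0.015). Peg3 in mesenchyme was at -0.66 (adjusted p = 0.060) with the block. With the numbers crossed, 4951 of 17321 genes were called over all cells, with 3 members higher and 2 lower.

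The sign changes under alternatives fixed beforehand were of values that were not called. Igf2r in placodal neurons, at -0.0028, read 0.0124 with RLE factors, 0.0104 with DESeq2, 0.0507 at resolution 0.5, 0.0385 with doublets kept and 0.0023 at 5% mitochondrial UMIs. Ndn over all cells read 0.0006 with RLE factors, 0.0019 with DESeq2, 0.001 at 5% mitochondrial UMIs and 0.001 with the replicate block. With the block crossed, an alternative added after seeing the data, Ndn read 0.0012. With 1 library left out, Meg3 in otic cells ranged from -0.1812 to 0.0866, Igf2r in placodal neurons from -0.0901 to 0.0969, Plagl1 in epibranchial neurons from -0.1102 to 0.3954, Grb10 in mesenchyme from -0.3405 to 0.0381, Ndn in mesenchyme from -0.2687 to 0.2246 and Ndn over all cells from -0.1125 to 0.1162. All endothelium fits were added after seeing the data. Their ranges were -0.0466 to 0.1204 for H19, -0.2373 to 0.4052 for Igf2r, -0.4355 to 0.4389 for Peg3, -0.6833 to 0.1467 for Plagl1 and -0.1146 to 0.2054 for Ndn.

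The shared otic clusters 2 and 21 together gave 3457 called genes of 12731 tested (6240 of 15144 in the class), with 5 members higher and 2 lower. With the clusters divided unequally between the genotypes, this fit reversed H19 (0.047), Igf2r (0.32), Meg3 (1.08) and Peg3 (0.75). Cluster 2 alone reversed Igf2r (0.014), Meg3 (1.51) and Peg3 (0.60), and cluster 21 alone Igf2r (0.045), Dlk1 (-1.37), Grb10 (0.0040) and Mest (0.013), with 1 member called higher and 1 lower. Among the placodal clusters, cluster 20 reversed Meg3 (0.035), Grb10 (-0.32) and Ndn (0.37), cluster 0 reversed Igf2r (0.019), Grb10 (-0.085) and Ndn (0.12), and cluster 7 reversed Igf2r (0.52) and Peg3 (0.56). Clusters 0 and 7 had 0 members lower, and cluster 7 had 2 higher. In cluster 0, 1529 genes were lower, and in cluster 7, 55. Epibranchial cluster 12 alone called 3 members higher and 1 lower and reversed Plagl1 (-0.77), and cluster 11 called 1 higher and 2 lower (Meg3 and Peg3) and reversed Igf2r (-0.20), Peg3 (-0.46, called) and Plagl1 (-0.11).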

Other observations

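Kcnq1ot1, the imprinted noncoding RNA of the Kcnq1 domain, was picked from the wider list after its values were seen. It fell in each class fitted: in otic cells from 410.4 and 402 CPM in controls to 211 and 232 in cKO (-0.88, adjusted p = 9.2e-05), by -0.74 in placodal neurons, -0.85 in epibranchial neurons and -0.76 in mesenchyme. Its imprinted neighbour Cdkn1c, a cell cycle inhibitor, did not pass in any of these classes (-0.17 in otic cells, adjusted p = 0.080). Airn, the noncoding RNA that overlaps Igf2r on the opposite strand, fell in otic cells (-0.46, adjusted p = 0.010), as Igf2r did, and in placodal neurons (-0.78, adjusted p = 0.025), where Igf2r read -0.0028.

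The unnamed cluster 10 held 1, 0, 221 and 369 cells of control 1, control 2, cKO 1 and cKO 2. In CPM of its UMIs, it had 42.8 and 44.6 of Igf2, 52.8 and 56.5 of H19, 99.4 and 111 of Peg3, 448 and 435 of Mest and 8.12 and 11.2 of Plagl1 in cKO 1 and cKO 2. The otic class without it had cKO means, in TMM-scaled CPM, of 38.2, 34.4, 64.8, 404 and 5.76 for these genes. With this cluster added to the otic class, 4 members were called higher and 4 lower, beside 6163 of 15361 genes.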
